A study of Bos taurus with 6 samples.

Results

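Glutathione, peroxiredoxins and related enzymes protect cells from peroxides, superoxide and reactive electrophiles. A set of 40 genes of this defence was taken from a list of symbols, which was chosen with earlier results of these data known. Every transcript cluster of the deposited array signals whose symbol equals a member was used, without regard to its values. Of these genes 38 were found, on 42 of 26773 transcript clusters, the array's unit for a gene. GSTA1 and SOD2 were not matched and were not analysed here. At high density the largest falls among the members were those of GCLC, TXNRD1, a pair of mu class glutathione transferases and NQO1, while PRDX5, MGST1 and GPX7 rose.

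RNA came from 6 cultures of primary bovine granulosa cells (GC), the steroid-producing cells that line the follicle, and each culture was hybridized to its own Bovine Gene 1.0 ST Array. Plating was at normal density for 3 of the cultures and at high density for the other 3. The cells were pools aspirated from small to medium sized follicles of abattoir ovaries of many cows with an undefined cyclicity status, and were frozen before use. Both groups were kept for 9 days on collagen without serum in α-MEM with FSH, IGF-1, androstenedione, insulin, transferrin and sodium selenite, the source of selenium for selenoproteins. Plating density is the only difference between the groups that the sources state. Whether replicates of the same number came from the same pool is not given in the sources used here, so p-values measure the spread between these cultures.

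Glutathione is built from glutamate, cysteine and glycine, and glutamate-cysteine ligase, made of a catalytic and a modifier subunit, catalyses the limiting step. Glutathione peroxidases and peroxiredoxins reduce peroxides with electrons from glutathione or thioredoxin, which NADPH-dependent reductases return to their reduced forms, and glutathione transferases couple glutathione to electrophiles. Many of these genes are textbook targets of the transcription factor NFE2L2 (NRF2), which KEAP1 holds back by targeting it for degradation. Steroid-producing cells form reactive oxygen in the cytochrome P450 reactions of their mitochondria.

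Signals are log2 values, and a difference is a log2 fold change, high minus normal density, with its standard error (SE). Called means here that limma's moderated test over all transcript clusters gave a p-value and a false discovery rate (FDR) below 0.05 and that the fold was larger than 1.5 in either direction, the thresholds of the study's methods. The array medians were between 4.34 and 4.43, and the 95th percentile of 82 reporter control rows, 4.62, served as background level. Of the member transcript clusters, 40 had both group means above it. Precision is set by having 3 arrays per density.

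The cultures were checked for their cell type. Of 12 granulosa markers all were above background at normal density and 11 at high density, where CYP19A1 was at 3.71. Of these markers 6 were called lower (FSHR, CYP19A1, INHA, INHBA, FST and FOXL2, between −2.80 and −0.65) and 0 higher, with a median log2 fold change of −0.57. The log2 of their summed signal was between 13.08 and 13.17 at normal and between 12.74 and 12.76 at high density. Leukocyte markers were above background in 0 of 7 cases and endothelial markers in 1 of 6, and CYP17A1 of theca cells had means of 2.93 and 2.92. Of 4 fibroblast and stroma markers all were above background, and their log2 summed signal moved from between 10.89 and 10.97 to between 11.18 and 11.23, with COL1A1 and THY1 called higher. Surface epithelium markers were above background at both densities in 2 of 5 cases, CDH1 and MSLN, and 0 were called. All 5 had positive differences, and their log2 summed signal moved from between 6.87 and 6.97 to between 7.03 and 7.10. Of 6 red blood cell markers HBA alone was above background, at high density, and the log2 summed signal moved from between 5.58 and 5.62 to between 9.25 and 9.85. Of 4 theca markers INSL3 was called higher, LHCGR was called lower with both means below background (4.04 and 2.84), and NR2F2 differed by −0.07. Their log2 summed signal moved from between 7.94 and 8.12 to between 9.18 and 9.42, and INSL3 was the only one with a positive difference. The part of these shifts in the results was not tested. Less RNA per cell and fewer cells of a kind cannot be told apart in such RNA.

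The members were chosen with earlier results of these data known, so the shares below are given without a test. Of the 42 member transcript clusters 9 were called, 21.4%, against 7.49% of all transcript clusters. The called ones were 3 higher (7.14% of the members, against 3.97% of all) and 6 lower (14.3%, against 3.51%). A further 3 higher and 7 lower passed the FDR but not the fold threshold. At any fold 45.2% of the members and 19.1% of all transcript clusters passed the FDR, 6 members higher (8.64% of all) and 13 lower (10.4% of all). Among the 13077 transcript clusters with a group mean above background 12.8% were called, 6.95% higher and 5.86% lower, and 31.9% passed the FDR. Of the 40 members above background 8 were called, 3 higher and 5 lower. The signals of the densities did not overlap for 29 members, 69.0%, against 37.3% of all transcript clusters. The median log2 fold change of the members was −0.04 and that of all transcript clusters 0.02. For those with a group mean above background it was −0.05, so the members were not shifted as a block. Leaving out any single culture gave 3 called higher and 5 or 6 called lower.

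**Figure D1:**
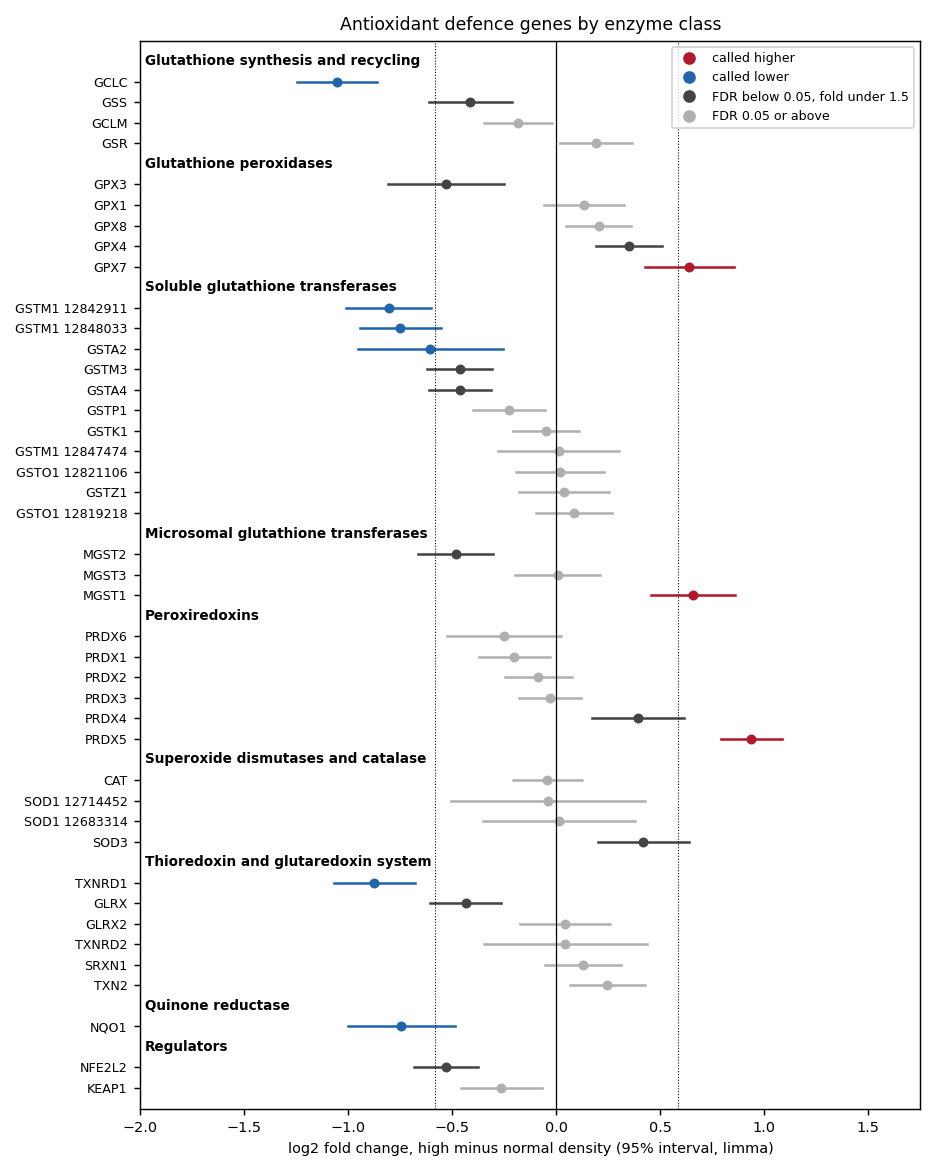
Log2 fold changes of the 42 member transcript clusters, grouped by enzyme class, with 95% intervals from limma on the x axis and 1 line per transcript cluster. Dotted lines mark the fold threshold of 1.5, colours mark the call, and the called falls lie in the synthesis, transferase, thioredoxin and quinone reductase classes, with −1.06 for GCLC the largest. GSTA2, in the transferase class, is below background at both densities.

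Among the genes of glutathione synthesis and recycling, 1 of 4 was called. GCLC, the catalytic subunit of glutamate-cysteine ligase, had signals of 9.55, 9.72 and 9.54 in the normal density cultures and of 8.56, 8.62 and 8.47 in the high density cultures. All high density cultures lay below all normal density cultures by about the same distance. GCLC (transcript cluster 12801746) had means of 9.60 ± 0.10 and 8.55 ± 0.08 (SD, n = 3) and fell by −1.06 on the log2 scale (SE 0.08, limma's adjusted p = 0.000212), the largest fall among the members. GCLM, the modifier subunit that lowers the amount of glutamate the ligase needs, differed by −0.19 (95% interval −0.35 to −0.02, adjusted p = 0.112). GSS, glutathione synthetase, which adds the glycine, passed the FDR with −0.41, from 6.98 ± 0.10 to 6.57 ± 0.10 (limma's adjusted p = 0.0141), below the fold threshold. GSR, which reduces oxidized glutathione with NADPH, had a difference of 0.19 (95% interval 0.02 to 0.36, adjusted p = 0.123).

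The glutathione peroxidases differed in direction. GPX7, an enzyme of the endoplasmic reticulum that carries cysteine where the classical peroxidases carry selenocysteine, had signals of 9.18, 9.34 and 9.23 at normal density and of 9.95, 9.74 and 9.99 at high density. High density replicate 2 was the lowest of its group and still above every normal density culture. GPX7 rose by a log2 fold change of 0.64 (SE 0.09, limma's adjusted p = 0.00298), from 9.25 ± 0.08 to 9.89 ± 0.13. Its relative GPX8, also of the endoplasmic reticulum, differed by 0.20 (95% interval 0.04 to 0.36) and did not pass the FDR. The selenoprotein GPX4, which reduces lipid hydroperoxides within membranes, passed the FDR with 0.35, from 10.34 ± 0.05 to 10.69 ± 0.04 (limma's adjusted p = 0.0114).

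GPX3, a selenoprotein that is secreted into plasma and other fluids, went the other way. It had 8.84 ± 0.03 at normal density, while the high density cultures were at 8.31, 8.07 and 8.54. The difference of −0.53 (SE 0.12, limma's adjusted p = 0.0199) passed the FDR but not the fold threshold, and without high density replicate 3 it was −0.65 and called. All high density cultures of GPX3 were below the normal density range, with a wider spread. GPX1, the abundant cytosolic selenoprotein peroxidase, differed by 0.13 (95% interval −0.06 to 0.33). Of the 5 selenoproteins in the set, GPX1, GPX3, GPX4, TXNRD1 and TXNRD2, 1 was called, and their differences were between −0.87 and 0.35.

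Soluble glutathione transferases gave 3 of the 6 called falls, on 11 transcript clusters of 8 genes. These were 27.3% of the class, against 3.51% of all transcript clusters and 5.86% of those with a group mean above background. GSTA2, among the 3, was below background. The symbol GSTM1 stands on 3 transcript clusters, and the RefSeq annotation of the ARS-UCD2.0 assembly gives their mRNAs to separate genes, LOC327709, LOC783879 and LOC615514. LOC615514 and LOC327709 follow GSTM3 directly in the gene order of that assembly, and LOC783879 is the fourth gene after LOC327709. They are therefore given here as separate mu class transferases. Genes of this family are alike in sequence and may share array probes, which were not analysed here.

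The GSTM1 transcript cluster of LOC327709 (12842911) had signals of 8.99, 8.89 and 8.86 at normal density and of 8.19, 7.96 and 8.17 at high density. The GSTM1 transcript cluster of LOC783879 (12848033) had 8.17, 8.16 and 8.35 at normal density and 7.39, 7.55 and 7.48 at high density. In both the groups were clearly separated. They fell by log2 fold changes of −0.81 (SE 0.09, limma's adjusted p = 0.000867) and −0.75 (SE 0.08, limma's adjusted p = 0.000997). The GSTM1 transcript cluster of LOC615514 (12847474) was below background in both groups, at 4.02 and 4.03, so no fold is given for it. With the signals of the 3 averaged under their common symbol, GSTM1 was not called.

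GSTM3, another mu class enzyme, passed the FDR below the fold threshold with −0.47, from 9.00 ± 0.05 to 8.53 ± 0.02 (limma's adjusted p = 0.00291). So did GSTA4, an alpha class enzyme that conjugates aldehydes from lipid peroxidation, with −0.46, from 9.04 ± 0.03 to 8.58 ± 0.02 (limma's adjusted p = 0.00242). GSTA2 (12804538) was called lower, with signals of 3.19, 2.73 and 2.59 at normal density and of 2.30, 2.21 and 2.18 at high density. All 6 of these values are below background, and the call was lost when any culture except normal density replicate 3 was left out. GSTP1, the pi class enzyme, differed by −0.23 (95% interval −0.40 to −0.05, adjusted p = 0.0749). The omega, kappa and zeta class genes GSTO1 (on 2 transcript clusters), GSTK1 and GSTZ1 had differences between −0.05 and 0.09, and their groups overlapped.

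The microsomal glutathione transferases are small membrane proteins of another family, and their members differed in direction. MGST1, found in the endoplasmic reticulum and the outer mitochondrial membrane, had signals of 8.96, 9.01 and 9.12 at normal density and of 9.57, 9.80 and 9.70 at high density. The lowest high density culture was above the highest normal density culture. MGST1 rose by 0.66 (SE 0.09, limma's adjusted p = 0.00203), from 9.03 ± 0.08 to 9.69 ± 0.12. MGST2, which can also make leukotriene C, passed the FDR with −0.48, from 7.40 ± 0.08 to 6.92 ± 0.07 (limma's adjusted p = 0.0048), below the fold threshold. MGST3 differed by 0.01 (95% interval −0.20 to 0.21).

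Among the peroxiredoxins, PRDX5 stood out by the size of its change and the small spread of its cultures. This thioredoxin-dependent peroxidase is found in mitochondria, peroxisomes and the cytosol. Its signals, with a further decimal, were 5.985, 5.995 and 5.963 at normal density and 6.914, 6.930 and 6.909 at high density. The gap between the densities was far wider than the spread within either. With means of 5.98 ± 0.02 and 6.92 ± 0.01 (SD, n = 3), PRDX5 (12829521) rose by 0.94 on the log2 scale (SE 0.06, limma's adjusted p = 0.000113), the largest rise among the members. Leaving out single cultures gave 0.93 to 0.94.

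PRDX4, the peroxiredoxin of the endoplasmic reticulum, passed the FDR with 0.39, from 8.44 ± 0.03 to 8.83 ± 0.16 (limma's adjusted p = 0.0264). High density replicate 2 was its highest culture, at 9.02, and without it the difference was 0.30. The cytosolic PRDX1 and PRDX2, the mitochondrial PRDX3 and PRDX6, which also has phospholipase activity, did not pass the FDR, with differences between −0.25 and −0.03. SRXN1, sulfiredoxin, which repairs overoxidized peroxiredoxins, differed by 0.13 (95% interval −0.05 to 0.31).

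**Figure D2:**
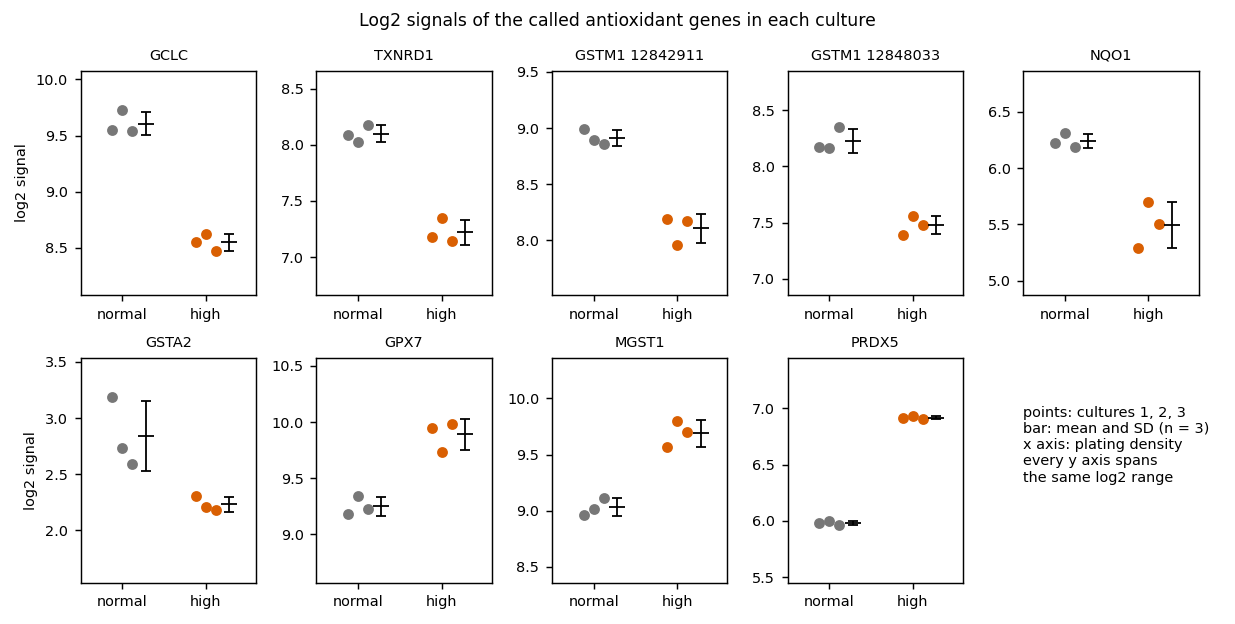
Log2 signals of the 9 called member transcript clusters in each culture (points) with mean and SD of 3 cultures per density, 1 panel each, all y axes spanning the same log2 range. No high density culture lies within the normal density range in any panel. The panel of PRDX5 has the smallest SD, 0.02 and 0.01.

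Superoxide dismutases turn superoxide into hydrogen peroxide, and catalase breaks hydrogen peroxide down. None of these genes was called. SOD3, the extracellular enzyme, passed the FDR with 0.42, from 6.81 ± 0.04 to 7.22 ± 0.16 (limma's adjusted p = 0.0199). CAT differed by −0.04 (95% interval −0.21 to 0.12). For SOD1, the cytosolic enzyme, the pair of transcript clusters had differences of 0.01 (95% interval −0.35 to 0.38) and −0.04 (95% interval −0.51 to 0.43), intervals that are wide for this set.

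Most of that spread lay in 1 culture. On SOD1 transcript cluster 12714452 the high density signals were 6.43, 7.14 and 6.34, and on 12683314 they were 8.37, 8.87 and 8.28. On both, high density replicate 2 was above every other culture of either density. Without it the differences were −0.29 and −0.17, and neither was called.

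In the thioredoxin system TXNRD1 was called. This cytosolic selenoprotein reduces thioredoxin with NADPH. Its signals were 8.09, 8.03 and 8.18 at normal density and 7.18, 7.35 and 7.14 at high density, without overlap. With means of 8.10 ± 0.08 and 7.22 ± 0.11 (SD, n = 3), TXNRD1 (12857179) fell by −0.87 on the log2 scale (SE 0.08, limma's adjusted p = 0.000527). Its mitochondrial counterpart TXNRD2 differed by 0.04 (95% interval −0.35 to 0.44), with high density signals of 5.66, 5.05 and 5.66. High density replicate 2 was the lowest of all 6 cultures for TXNRD2, and without it the difference was 0.25, not called. The mitochondrial thioredoxin TXN2 differed by 0.25 (95% interval 0.06 to 0.43, adjusted p = 0.0688).

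Glutaredoxins remove glutathione from protein cysteines. GLRX, the cytosolic form, passed the FDR with −0.44, from 5.08 ± 0.03 to 4.65 ± 0.08 (limma's adjusted p = 0.00589). At high density its mean was close to background. The mitochondrial GLRX2 differed by 0.04 (95% interval −0.18 to 0.26).

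NQO1, which reduces quinones with NAD(P)H, had signals of 6.23, 6.31 and 6.19 at normal density and of 5.29, 5.70 and 5.50 at high density. The high density cultures spread more and remained below all others. NQO1 fell by −0.74 on the log2 scale (SE 0.11, limma's adjusted p = 0.00346), from 6.24 ± 0.06 to 5.50 ± 0.20. When variances were not assumed to be equal in the methods' t-test, NQO1, GPX7 and GSTA2 were not called.

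For the transcript of the regulator NFE2L2 itself the means were 9.57 ± 0.02 (normal) and 9.04 ± 0.05 (high). This difference of −0.53 (SE 0.07, limma's adjusted p = 0.00154) passed the FDR but not the fold threshold, and leaving out single cultures gave −0.55 to −0.50. KEAP1 differed by −0.26 (95% interval −0.46 to −0.07, adjusted p = 0.067). NFE2L2 is regulated mainly through the stability of its protein, which arrays do not measure.

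The members can also be ordered by textbook knowledge that did not choose them. This ordering was written after the values were seen, so counts are given without a test. Of the 14 transcript clusters of textbook NFE2L2 targets 0 were called higher and 6 lower, with a median log2 fold change of −0.46. The lower ones made up 42.9%, against 3.51% of all transcript clusters and 5.86% of those with a group mean above background, and include GSTA2, which was below background and lost its call in 5 of 6 leave-outs. The targets are those of GCLC, GCLM, GSR, TXNRD1, SRXN1, NQO1, PRDX1 and the alpha, mu and pi class transferases GSTA2, GSTA4, GSTM1, GSTM3 and GSTP1. GSR and SRXN1 had small positive differences that did not pass the FDR. Of the other 28 transcript clusters 3 were called higher (10.7%, against 3.97% of all) and 0 lower, with a median of 0.01. The targets counted here are members only. Outside the set, a list of 32 transcript clusters of NFE2L2 partners, repressors and further textbook targets had 2 called higher and 0 lower. These were EPHX1 (1.09) and ABCC3 (1.18), and the median of that list was 0.09. SLC7A11 (1.61, called higher) was listed under cysteine supply and MGST1 (0.66, called higher) among the other members. Neither was counted as a target here, so the counts depend on how the lists were drawn.

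The compartments were also assigned after the values were seen, and some genes could be placed otherwise. MGST1, found in the outer mitochondrial membrane too, was counted with the secretory route and membranes, and GPX4 (0.35) with the mainly cytosolic enzymes. By compartment, the 8 genes of the secretory route, membranes and the extracellular space had a median log2 fold change of 0.30. GPX7 and MGST1 were called higher, PRDX4 and SOD3 passed the FDR upwards, and GPX3 and MGST2 passed it downwards. For comparison, 3.97% of all transcript clusters were called higher and 19.1% passed the FDR at any fold. Among those with a group mean above background these shares were 6.95% and 31.9%. Whether so small a group differs from other genes was not tested. The 25 transcript clusters of mainly cytosolic enzymes had a median of −0.20, with 6 called lower, among them GSTA2 below background, and 0 higher. These shares of 24.0% and 0% compare with 3.51% and 3.97% of all transcript clusters. The 6 are the same that were called among the NFE2L2 targets, so both orderings rest on the same falls. PRDX5, which is also found in peroxisomes and the cytosol, was counted among the 6 mitochondrial genes. It alone of these was called (16.7%), and their median was 0.04.

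For 9 pairs of members that share a reaction or differ in compartment, the difference between the signals of the pair was taken within each array and compared between densities. The high minus normal value of this difference was −0.92 for TXNRD1 minus TXNRD2, −0.87 for GCLC minus GCLM, 0.97 for PRDX5 minus PRDX3 and 0.65 for MGST1 minus MGST3. It was −0.48 for GLRX minus GLRX2, 0.44 for GPX7 minus GPX8, −0.34 for GSTM1 (LOC327709) minus GSTM3, −0.27 for NFE2L2 minus KEAP1 and −0.17 for PRDX1 minus PRDX3. In each pair the densities did not overlap. For single transcript clusters this was so for 69.0% of the members and 37.3% of all, and no such share was computed for pairs of other genes. The pairs were chosen with earlier results of these data known. The exact permutation test (two-sided) gave p = 0.1 for each, also after Benjamini-Hochberg adjustment over 9 pairs, which is the smallest p that 3 cultures per density allow, so none of these values can pass a threshold of 0.05.

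The route of glutathione was followed beyond the members in a list of 83 other antioxidant genes, of which 80 were found on 85 transcript clusters. Of these transcript clusters 9 were called higher and 6 lower, and another 10 and 11 passed the FDR only. These shares of 10.6% called higher, 7.06% called lower and 42.4% past the FDR compare with 3.97%, 3.51% and 19.1% of all transcript clusters, and with 6.95%, 5.86% and 31.9% of those with a group mean above background. The median log2 fold change was 0.02. In the list of cysteine supply and glutathione breakdown 5 of 16 transcript clusters (31.2%) were called higher and 0 lower, and the 5 belong to 4 genes.

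SLC7A11, which imports cystine, had signals of 4.69, 4.70 and 4.64 at normal density, just above background, and of 6.08, 6.37 and 6.41 at high density. It rose by 1.61 (SE 0.10, limma's adjusted p = 8.39e-05). CBS and CTH, which make cysteine from homocysteine, rose as well. CBS had a log2 fold change of 1.23 (SE 0.15, limma's adjusted p = 0.00136), and CTH rose on its pair of transcript clusters, from 4.78 ± 0.34 to 6.36 ± 0.12 and from 4.89 ± 0.11 to 6.08 ± 0.33 (limma's adjusted p = 0.000761 and 0.00233). CHAC1, which degrades glutathione inside the cell, rose from 4.39 ± 0.03, below background, to 7.49 ± 0.27, a log2 fold change of 3.10 (SE 0.13). When variances were not assumed to be equal in the methods' t-test, SLC7A11, CBS and both transcript clusters of CTH were not called.

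GCLC thus fell in the same cultures in which the genes of cysteine supply rose. The partner subunit of the cystine carrier, SLC3A2, differed by 0.31 and just missed the FDR (adjusted p = 0.0528). CHAC2, which degrades glutathione more slowly, passed the FDR with −0.29, below the fold threshold. The gamma-glutamyl transferases GGT1, GGT5, GGT6 and GGT7 were not called, with differences between −0.20 and 0.29, and GGT5 and GGT6 were below background in both groups.

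**Figure D3:**
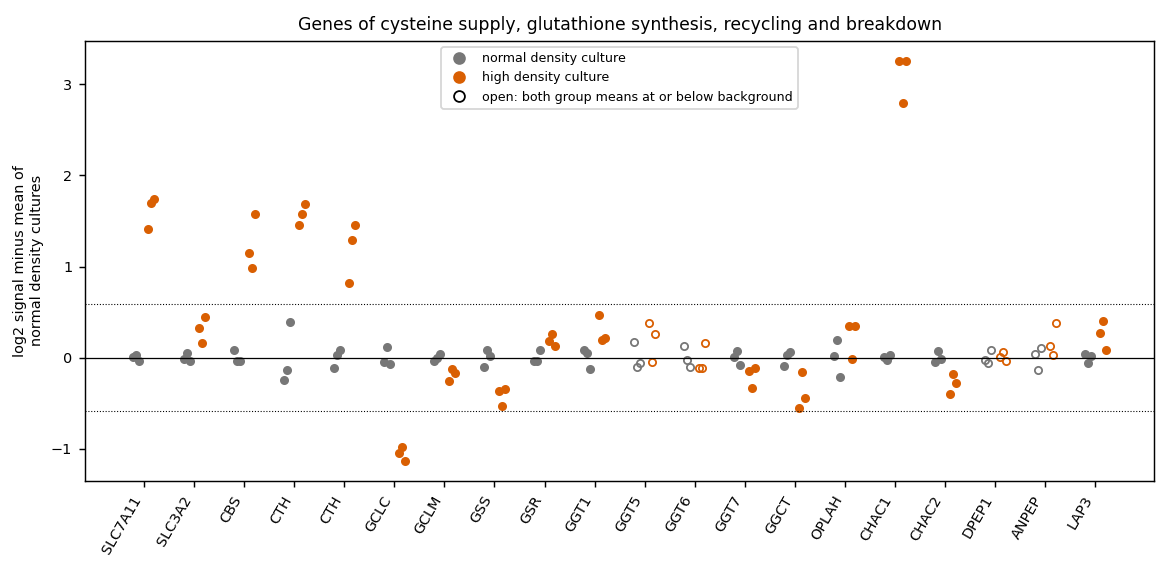
Log2 signals minus the mean of the normal density cultures for genes of cysteine supply, glutathione synthesis, recycling and breakdown. Each point is a culture, grey for normal and orange for high density, and dotted lines mark the fold threshold of 1.5. SLC7A11, CBS, both CTH transcript clusters and CHAC1 lie above it in every high density culture, and GCLC lies below it.

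Other glutathione transferases outside the set were also measured. GSTA5 fell by −1.43 (SE 0.11, limma's adjusted p = 0.000168), from 8.43 ± 0.04 to 7.01 ± 0.20. GSTM2 fell by −0.73 (SE 0.07, limma's adjusted p = 0.000607), from 9.45 ± 0.03 to 8.72 ± 0.08. GSTT1, of the theta class, fell by −0.64 (SE 0.12, limma's adjusted p = 0.0103), a call that was lost without high density replicate 2, with −0.53, with array weights, with −0.52, with an FDR below 0.01 and with the methods' t-test whether or not variances were assumed to be equal. The call of GSTA5 was lost when they were not. GSTA3 passed the FDR with −0.50 on the transcript cluster above background (12806992), below the fold threshold, and the other (12806969) was below background. The omega class gene GSTO2 passed the FDR upwards with 0.51, from 4.82 ± 0.05 to 5.34 ± 0.21 (limma's adjusted p = 0.0165), below the fold threshold. HPGDS, a sigma class transferase that makes prostaglandin D, was called higher by 1.23, but with group means of 2.35 and 3.58, both below background.

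The cultures differed in how far single members strayed from their group. The median SD of the members was 0.06 at normal and 0.10 at high density, and 28 of the 42 had the larger SD at high density. For all transcript clusters the median SD values were 0.08 and 0.13, and 68.4% had the larger SD at high density, so the members shared this feature of the whole data. High density replicate 2 was below both other high density cultures for 19 members and above both for 16. For 33 of the 42 its distance from the mean of the other high density cultures was larger than the distance between those cultures. These counts were not computed for all transcript clusters. Its distance from that mean was over 0.5 for 3 member transcript clusters, both of SOD1 and that of TXNRD2. The distances were 0.76 and 0.54 for SOD1 and −0.61 for TXNRD2. Without this culture 3 members were called higher and 5 lower. Over all transcript clusters 1160 were then called higher and 1274 lower, against 1064 and 941 with all cultures.

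**Figure D4:**
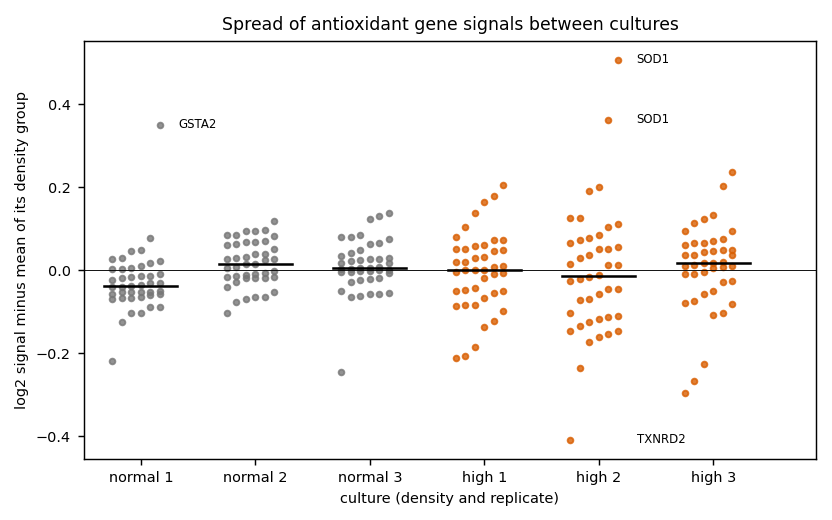
Log2 signal of each of the 42 member transcript clusters minus the mean of its density group, for each culture, with the median as a bar and points beyond 0.3 named. The points of SOD1 and TXNRD2 in high density replicate 2 and of GSTA2 in normal density replicate 1 lie farthest from 0.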

How the data were processed

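The deposited values are log2 signals that the authors made with RMA in Expression Console, which corrects background, normalizes the arrays and summarizes probes per transcript cluster. No further normalization was applied, and the table holds 0 columns of other samples. Columns were assigned to cultures by title. High and normal density were compared by limma 3.58.1 (lmFit, eBayes) under R 4.3.3 without covariates, and p-values were adjusted by Benjamini-Hochberg across the 26773 transcript clusters. The script was tested on simulated data. Errors after ± are SD among cultures, SE is limma's standard error, and 95% intervals are limma's for single transcript clusters.

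Members were matched by exact symbol, and transcript clusters of a symbol were counted separately. By RefSeq mRNA accession 27 of 42 matched the reference annotation, 24 under the same symbol. No sequences are shown, and coordinates are omitted because the files name no genome build. Called members are given in full, FDR-only members by means, and called genes of the wider list by name. Members, gene lists and pairs were chosen with earlier results of these data known. Pair tests used exact permutation in scipy 1.17.1. Alternatives were the methods' t-test and its Welch version, trended robust variances, array weights, a replicate block, other scalings, filters, averaging the transcript clusters of a symbol, a stricter FDR of 0.01 and leaving out each culture. SOD1 minus SOD2 could not be computed.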

Additional observations from a re-analysis of the deposited data

How the results depend on the processing

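The counts of 3 members called higher and 6 called lower were 3 and 6 with trended robust variances, array weights, arrays centred on the median, a second quantile normalization and transcript clusters with a symbol only. With replicate number as a replicate block they were also 3 and 6. Same-numbered cultures did not deviate together (correlations 0.05, −0.05 and −0.04), so the numbers are not taken to pair them, and over all transcript clusters the block gave 1066 higher and 954 lower. The counts were 3 and 5 with the methods' t-test, with FDR below 0.01 and with dim transcript clusters left out, 2 and 4 with the Welch version, and 3 and 4 with the mean over a symbol. Over all transcript clusters the Welch version called 525 higher and 313 lower, against 1064 and 941. GSTA2 lost its call with the methods' t-test, the Welch version and the FDR below 0.01, and NQO1 and GPX7 with the Welch version. Of the other antioxidant genes, GSTT1, GSTA5, HPGDS, SLC7A11, CBS, both CTH transcript clusters, SESN2 and SESN3 lost their calls with the Welch version (adjusted p between 0.0532 and 0.158). GPX3 was called without high density replicate 3, with −0.65. The change of GSTM1 minus GSTM3 was −0.05 with the mean over the transcript clusters of GSTM1. The median of the members was between −0.07 and −0.04 with each culture left out, −0.0854 with arrays centred on the median and −0.015 after a second quantile normalization. The cause of these shifts was not tested.

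Members that were not called and lie near 0 changed sign. With arrays centred on the median this was so for GSTM1 (12847474, −0.0323), GSTO1 (12821106, −0.0279), GSTZ1 (−0.00665), MGST3 (−0.0375), SOD1 (12683314, −0.032), TXNRD2 (−0.00124) and GLRX2 (−0.00392). With a second quantile normalization it was so for GSTM1 (12847474, −0.0501), PRDX3 (0.00155) and SOD1 (12714452, 0.0026), and with array weights for SOD1 (12683314, −0.13). With each culture left out, the ranges were −0.099 to 0.10 for GSTM1 (12847474), −0.041 to 0.096 for GSTO1 (12821106), −0.053 to 0.091 for GSTZ1, −0.041 to 0.079 for MGST3, −0.17 to 0.12 for SOD1 (12683314), −0.29 to 0.11 for SOD1 (12714452), −0.0599 to 0.25 for TXNRD2 and −0.023 to 0.11 for GLRX2. Their directions are not settled.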

Other observations

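Further genes of redox defence passed the test outside the set, and are given as values. Among the sestrins, which respond to stress and nutrients, SESN3 fell by −1.30 (SE 0.11, limma's adjusted p = 0.000331) and SESN1 passed the FDR below the fold threshold with −0.48, while SESN2, a textbook target of the stress factor ATF4, rose by 0.91 (SE 0.11, limma's adjusted p = 0.00159). TXNIP, which binds thioredoxin, fell by −6.08, and XDH, which can form superoxide, by −2.38, both to high density means below background (3.93 and 3.91). EPHX1, a microsomal epoxide hydrolase, rose by 1.09 (SE 0.07, limma's adjusted p = 9.87e-05), and ABCC3, an exporter of conjugates, by 1.18 (SE 0.08, limma's adjusted p = 0.00014).

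Other textbook NFE2L2 targets passed the FDR below the fold threshold in both directions. BLVRA and BLVRB, the biliverdin reductases, had −0.46 and −0.43, and the exporter ABCC1 had −0.39, while PGD of the pentose phosphate pathway had 0.27 and FTH1, the ferritin heavy chain, 0.27. HMOX1, heme oxygenase, differed by −0.28 (limma's adjusted p = 0.0817) and SQSTM1 by 0.05, and neither passed the FDR. The isocitrate dehydrogenases, which supply NADPH, passed the FDR in opposite directions, with −0.48 for the cytosolic IDH1 and 0.49 for the mitochondrial IDH2. The methionine sulfoxide reductases MSRA and MSRB2 had 0.41 and 0.40. BACH1 and MAFK, which can repress or bind NFE2L2 target sites, had 0.39 and 0.38. Of the 32 transcript clusters in this list of partners and targets 2 were called, EPHX1 and ABCC3, 6.25% against 7.49% of all transcript clusters and 12.8% of those with a group mean above background.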
